A study of Mus musculus with 6 samples.

Results

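The core circadian clock was examined as 10 genes, chosen by symbol in a table of 13026 genes of whole mouse kidney: the activators Arntl, Clock and Npas2, and the repressors Per1, Per2, Per3, Cry1, Cry2, Nr1d1 and Nr1d2. All 10 were in the table and all 10 passed the filter on low values. The table holds 6 libraries, 3 labelled LIGHT+/+ (wild type) and 3 labelled LIGHT-/- (LIGHT knockout), from adult male mice on a C57BL/6 J background. LIGHT, the product of Tnfsf14, is a signalling protein of the family of tumour necrosis factor. Every mouse, in both groups, had ischemia of both kidneys for 32 min and reperfusion for 24 h, and no unoperated kidney was analysed here. How the knockout allele was made and the time of day of surgery and of collection were not stated in the labels. Tnfsf14 itself was not analysed here, so the genotype of each library was taken from its label without a check on the targeted gene. Nor do the labels say that the 3 numbered samples of a group came from 3 mice. The p-values therefore reflect sample-to-sample spread, which may be technical in part.

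The mammalian clock is a loop of transcription and feedback. BMAL1, the protein of Arntl, pairs with CLOCK or with its relative NPAS2 and activates genes through E-box sequences, among them the Per, Cry and Nr1d genes. PER and CRY proteins then return to block the activator pair, while the nuclear receptors REV-ERBα and REV-ERBβ, encoded by Nr1d1 and Nr1d2, silence Arntl and Npas2 through sequences called ROREs. ROR proteins activate the same ROREs, and the bZIP factors DBP, TEF and HLF activate D-box sequences, which NFIL3 represses. The kidney has its own clock, known for its part in the daily rhythm of salt and water excretion, and transcripts of the activator Arntl and of the Per and Nr1d genes peak in nearly opposite phases.

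Matches to the motifs of these factors, found by a search of letters in the members' own start regions, are shown first because they mark which members carry the letters of which arm. A match is a description and not evidence of binding. RefSeq start windows on GRCm38.p6, each of 300 bases (250 before and 50 after a start), were held for 9 of the 10 members (13 windows, none for Per2). The motifs searched on both strands were the E-box CACGTG, its variant CACGTT, the D-box TTANGTAA, the RORE ANTAGGTCA, the RORE variant ANTAGGTTA and the cyclic AMP element TGACGTCA. None of these strings contains another. Of 32817 windows of all genes, 7.15% held the E-box, 4.69% its variant, 2.32% the D-box, 0.661% the RORE, 0.39% the RORE variant and 1.79% the cyclic AMP element. Of 26996 genes, 8.09% held the E-box, 5.44% its variant and 2.72% the D-box in at least 1 window. The RORE, the RORE variant and the cyclic AMP element were held by 0.708%, 0.467% and 2.03%. At least 1 of the motifs was found in 6 of the 9 members with a window. The share of all genes with any of the motifs was not counted. The stretches below read 5′ to 3′ on the strand of the gene, with the motif in capitals. A match to CACGTT on the other strand appears as AACGTG.
Arntl, RORE variant, chr7:113207493-113207521, plus strand: ttggtcggaaAGTAGGTTAgtggtgcgac
Arntl, RORE, chr7:113207529-113207557, plus strand: gaaggcagaaAGTAGGTCAgggacggagg
Per3, 2 D-boxes, chr4:151044776-151044910, minus strand: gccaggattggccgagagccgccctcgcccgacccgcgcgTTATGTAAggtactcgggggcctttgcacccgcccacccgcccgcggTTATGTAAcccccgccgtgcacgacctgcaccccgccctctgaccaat
Cry1, E-box variant and E-box, chr10:85185069-85185173, minus strand: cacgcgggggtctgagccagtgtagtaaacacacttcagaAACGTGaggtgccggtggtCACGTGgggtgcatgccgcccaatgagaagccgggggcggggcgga
Per1, E-box, chr11:69098743-69098828, plus strand: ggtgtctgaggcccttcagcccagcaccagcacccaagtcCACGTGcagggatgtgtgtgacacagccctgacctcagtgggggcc
Cry2, E-box variant, chr2:92434190-92434275, minus strand: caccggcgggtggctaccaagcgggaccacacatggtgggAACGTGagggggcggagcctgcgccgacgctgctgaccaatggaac
Nr1d1, E-box variant, chr11:98775378-98775445, minus strand: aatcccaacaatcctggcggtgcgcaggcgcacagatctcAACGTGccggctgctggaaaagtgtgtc

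Arntl held both forms of the RORE, inside an annotated exon at its start, and was the 1 member with either. Per3 was the 1 member with a D-box and held 2 of them, at -205 and -158 from its start. No match was found in the windows of Clock, Npas2 and Nr1d2, which says only that these letters are not in those windows.

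In FPKM, a level scaled for transcript length and library total, the repressors Per2, Per3, Nr1d1 and Nr1d2 stood higher in all 3 knockout libraries than in all 3 of wild type, and the activator Npas2 stood lower in every one. Arntl averaged lower in the knockout with some overlap, and Clock, Per1, Cry1 and Cry2 overlapped broadly. The largest difference was in Per2, with means of 4.95 ± 1.22 FPKM for wild type and 10.2 ± 1.72 for the knockout (SD, n = 3 each). No member passed the test over all genes, a limma fit on log2(FPKM + 1) with a Benjamini-Hochberg adjusted p under 0.05, which 15 of 12836 genes (0.117%) passed. At an unadjusted p under 0.05 there were 5 of 10 members, 4 higher and 1 lower, against 8.08% of all genes tested (4.34% higher and 3.74% lower). Values did not overlap between the groups in the same number, 5 of 10, against 16.6% of all genes (7.76% higher and 8.8% lower in the knockout). The members were chosen with earlier results of these data known, so these counts describe them and do not test them.

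Knockout library 3 stood apart from the other libraries, with a correlation across genes of 0.934 to 0.956 with them, against 0.976 to 0.989 among the other 5. It carried markers of adipocytes: Cfd was at 63.6 FPKM, Adipoq at 13.1 and Cidea at 6.54 there, while in the other 5 libraries these were at or near 0 (at most 0.147 for Cfd). The 8 adipocyte markers in the table, of 9 listed, summed to 142 FPKM in that library, where Cfd was the highest and Fabp4 was at 35.8. In the others they summed to between 12.8 and 21.3, most of it Fabp4, which capillary endothelium also makes. Members whose value moved by more than 1.5 times without that library are also given without it, as are those whose groups did not overlap. The FPKM table carries no read counts, so the depth behind each value is unknown. In whole tissue, fewer cells of a type and less RNA per cell cannot be told apart. None of the 10 genes lies on chromosome 17, which carries Tnfsf14.

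**Figure D1:**
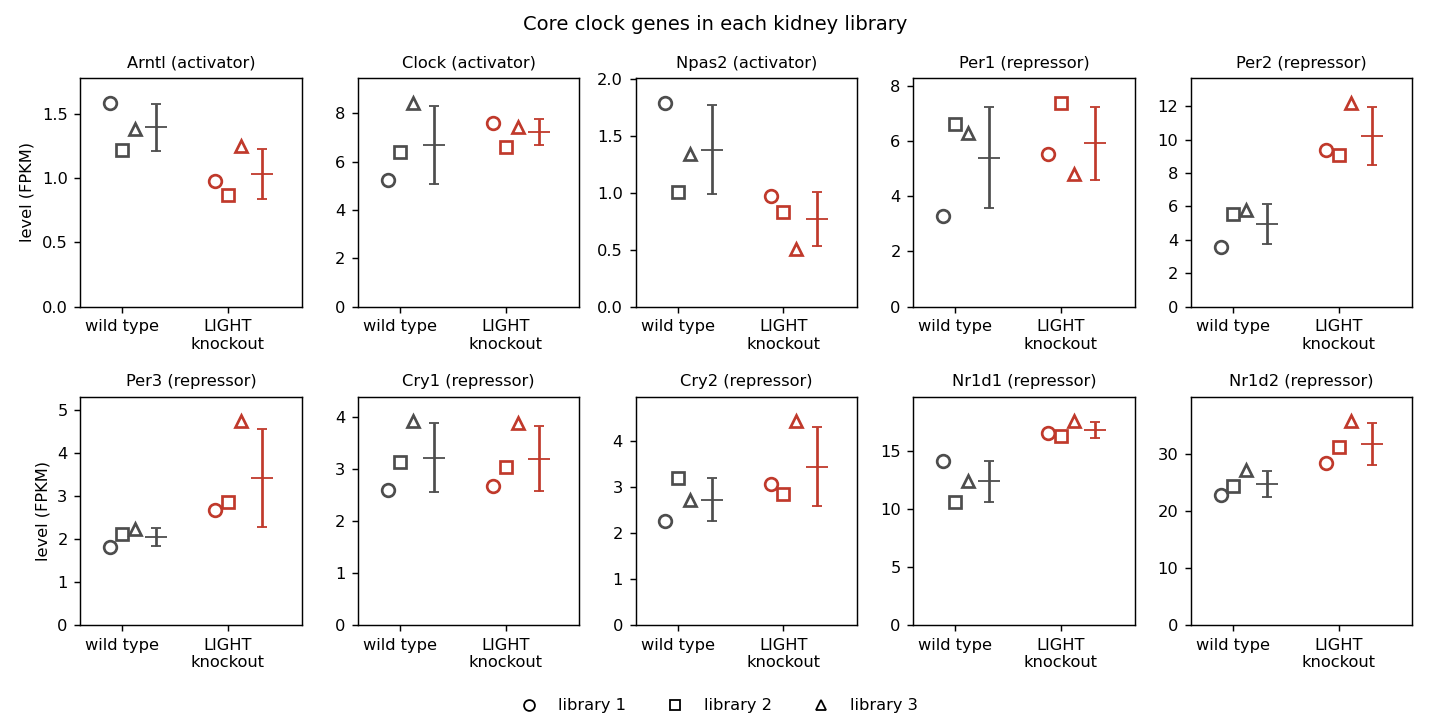
Level of each core clock gene in FPKM (vertical axes, each from 0) in wild type (grey) and LIGHT knockout (red) kidneys; symbols are libraries 1 to 3, and the bar beside them is the mean ± SD of 3. Per2, Per3, Nr1d1 and Nr1d2 lie higher and Npas2 lies lower in all 3 knockout libraries, while the other 5 genes overlap.

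Among the activators, Arntl (ENSMUSG00000055116.8; mm10 chromosome 7, 113207465 to 113314126, plus strand) encodes the BMAL1 subunit on which the activator pair depends. Its level was 1.59, 1.22 and 1.38 FPKM in wild type libraries 1 to 3 and 0.974, 0.869 and 1.25 in the knockout libraries. The groups overlapped at 1 point, where knockout library 3 lay just above wild type library 2. The fitted log2 fold change was -0.24 ± 0.12 (SE), with a limma adjusted p of 0.601. Without knockout library 3 it was -0.32 ± 0.12 and the groups no longer overlapped (limma adjusted p = 0.689). With a pseudocount of 0.1 in place of 1 the value was -0.41.

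Npas2 (ENSMUSG00000026077.15; chromosome 1, 39193731 to 39363236, plus strand) encodes the partner that can stand in for CLOCK. It stood at 1.79, 1.01 and 1.34 FPKM in wild type and at 0.972, 0.834 and 0.503 in knockout. All 3 knockout values were below all 3 wild type values, though knockout library 1 and wild type library 2 were nearly equal. The log2 fold change was -0.42 ± 0.17 (SE, limma adjusted p = 0.592) and -0.31 ± 0.17 without knockout library 3. On the scale used, a gene near 1 FPKM has its fold understated, and with a pseudocount of 0.1 in place of 1 the value was -0.77.

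Clock (ENSMUSG00000029238.11; chromosome 5, 76209868 to 76304792, minus strand), the usual partner of BMAL1, did not follow the other activators. It was at 5.22, 6.39 and 8.43 FPKM in wild type and at 7.61, 6.62 and 7.42 in knockout, all within the wild type range. The log2 fold change was 0.12 ± 0.16 (SE), with a 95% interval of -0.27 to 0.50 and a limma adjusted p of 0.823. Without wild type library 1, its lowest, the value was -0.024. Clock was the most abundant of the activators in both groups. The ratio of Clock to Npas2, formed after the values were seen, was 2.91, 6.36 and 6.27 in wild type and 7.84, 7.94 and 14.8 in knockout.

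The Period genes, which encode the PER repressors, differed among themselves. Per2 (ENSMUSG00000055866.9; chromosome 1, 91415982 to 91459324, minus strand) was at 3.55, 5.53 and 5.77 FPKM in wild type and at 9.35, 9.08 and 12.2 in knockout. The lowest knockout value was well above the highest wild type value. Its log2 fold change of 0.92 ± 0.19 (SE), a fold of 1.90, ranked 53rd of 12836 genes by unadjusted p (limma adjusted p = 0.480). Without knockout library 3 the log2 fold change was 0.80 ± 0.19 (limma adjusted p = 0.488), and across all alternatives it lay between 0.74 and 1.05.

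Per3 (ENSMUSG00000028957.12; chromosome 4, 151003652 to 151044665, minus strand), the least abundant Period gene, is the member with the pair of D-boxes shown above. Its values were 1.81, 2.11 and 2.22 FPKM in wild type and 2.66, 2.86 and 4.73 in knockout. The groups did not overlap, and knockout library 3 was far above the other libraries. The log2 fold change was 0.51 ± 0.19 (SE, limma adjusted p = 0.592), and 0.30 ± 0.12 without that library. Camta1, which overlaps Per3 on the same strand without sharing exon bases, averaged 1.14 ± 0.0975 and 1.07 ± 0.141 FPKM (SD, n = 3 each).

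Per1 (ENSMUSG00000020893.17; chromosome 11, 69095217 to 69109960, plus strand), which glucocorticoids and other acute signals also induce, showed no such separation. It was at 3.29, 6.63 and 6.28 FPKM in wild type and at 5.55, 7.39 and 4.81 in knockout. Wild type library 1 was the lowest of all 6, and the others interleaved. The log2 fold change was 0.14 ± 0.25 (SE), with a 95% interval of -0.46 to 0.74 and a limma adjusted p of 0.860, and it was -0.12 without wild type library 1. Leaving out knockout library 3 instead gave 0.26 ± 0.27. The ratio of Per2 to Per1, also formed after the values were seen, was 1.08, 0.834 and 0.918 in wild type and 1.68, 1.23 and 2.53 in knockout.

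The cryptochromes, the partners of PER in blocking the activators, overlapped between the groups. Cry1 (ENSMUSG00000020038.9; chromosome 10, 85131700 to 85185064, minus strand) was at 2.59, 3.14 and 3.91 FPKM in wild type and at 2.68, 3.03 and 3.88 in knockout. Group means were nearly equal, at 3.21 ± 0.663 and 3.20 ± 0.621 (SD, n = 3 each), and the 95% interval of the log2 fold change was -0.39 to 0.38 (limma adjusted p = 0.996). Without knockout library 3 the value was -0.12 ± 0.16 (SE). Cry2 (ENSMUSG00000068742.11; chromosome 2, 92403646 to 92434043, minus strand) was at 2.26, 3.20 and 2.71 FPKM in wild type and at 3.06, 2.85 and 4.43 in knockout. Only knockout library 3 lay above the wild type range, and the log2 fold change of 0.25 ± 0.17 (SE, limma adjusted p = 0.663) became 0.09 ± 0.14 without it. A non-coding gene on the opposite strand shares 295 exon bases with Cry2, 4.67% of its exon bases.

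Both REV-ERB genes stood higher in the knockout. Nr1d1 (ENSMUSG00000020889.11; chromosome 11, 98767932 to 98775333, minus strand) was at 14.2, 10.6 and 12.4 FPKM in wild type and at 16.6, 16.3 and 17.6 in knockout. The knockout libraries lay close together, with an SD of 0.658 against 1.79 in wild type, and none reached down to the wild type values. The log2 fold change was 0.42 ± 0.12 (SE, limma adjusted p = 0.592), and 0.39 ± 0.13 without knockout library 3. Nr1d1 shares 263 exon bases, 8.55% of its own, with Thra on the opposite strand. The libraries were stranded, per the labels' protocols, but the labels do not say whether reads were counted by strand. Thra, a thyroid hormone receptor gene, had means of 6.60 ± 0.549 FPKM for wild type and 7.82 ± 2.74 for the knockout (SD, n = 3 each; limma adjusted p = 0.816).

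Nr1d2 (ENSMUSG00000021775.10; chromosome 14, 18204054 to 18239127, minus strand) was the most abundant member. It was at 22.7, 24.3 and 27.1 FPKM in wild type and at 28.3, 31.1 and 35.7 in knockout. The groups did not overlap, but knockout library 1 and wild type library 3 were close. The log2 fold change was 0.34 ± 0.12 (SE, limma adjusted p = 0.592), and 0.26 ± 0.10 without knockout library 3. The ratio of Nr1d2 to Nr1d1 overlapped between the groups, at 1.60 to 2.29 in wild type and 1.71 to 2.03 in knockout. Up to 9.51% of a member's 31-base words occurred in transcripts of other genes, the highest share being that of Nr1d2.

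**Figure D2:**
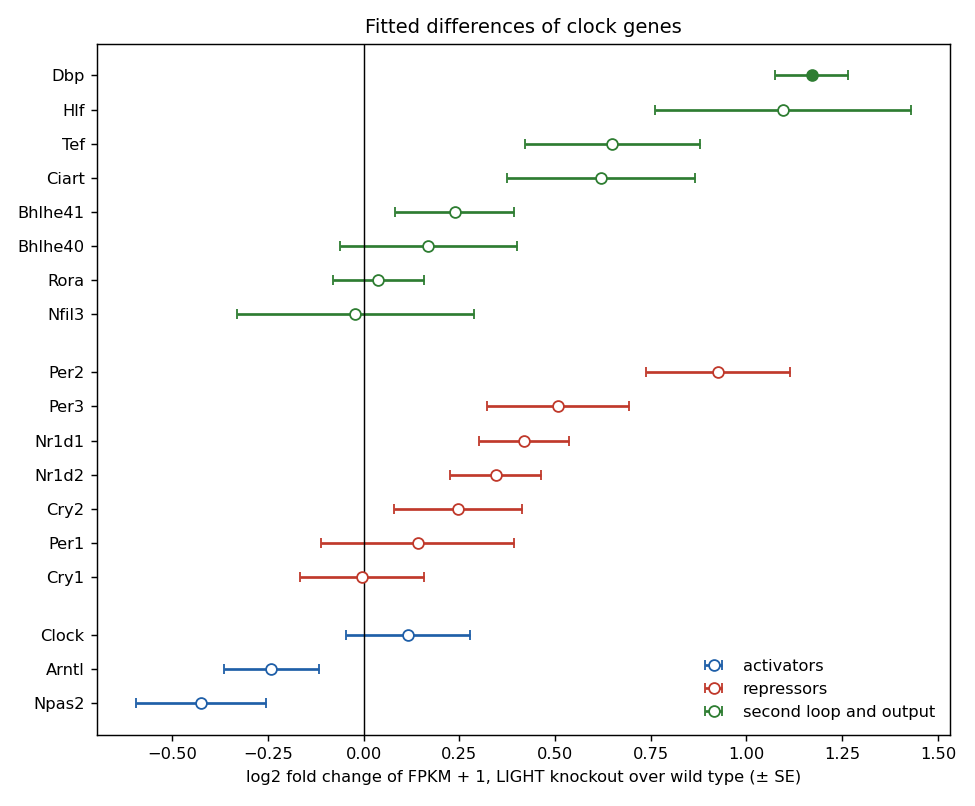
Fitted log2 fold change of FPKM + 1 (horizontal axis, knockout over wild type; bars are ± SE) for the 3 activators (blue), the 7 repressors (red) and 8 second-loop and output factors (green); filled points passed the adjusted test. Dbp at 1.17 is the filled point, Per2 at 0.92 is the highest member, and Npas2 at -0.42 is the lowest.

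The order of the levels was led in both groups by Nr1d2 and Nr1d1, each clear of its neighbour below, and ended in both by Arntl and Npas2, which overlapped each other. In wild type, Clock, Per1, Per2, Cry1 and Cry2 followed in that order, each overlapping the next, and Per3 came below Cry2 without overlap. In knockout, Per2 came directly below Nr1d1, clear of Clock beneath it, while in wild type Per2 was the fifth gene. Clock and Per1 overlapped there, and Cry2, Per3 and Cry1 overlapped in turn.

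The comparison of the arms set the mean log2(FPKM + 1) of the 3 activators against that of the 7 repressors in each library. The activator mean was 1.83, 1.68 and 1.91 in wild type libraries 1 to 3 and 1.69, 1.57 and 1.61 in knockout. These ranges overlapped slightly, since knockout library 1 lay above wild type library 2. The repressor mean was 2.55, 2.80 and 2.87 in wild type and 2.98, 3.06 and 3.27 in knockout, without overlap. Activators minus repressors gave -0.72, -1.12 and -0.96 in wild type and -1.29, -1.49 and -1.66 in knockout. Each knockout library had a larger excess of repressors than each wild type library. The group means of that difference were -0.93 ± 0.20 and -1.48 ± 0.19 (SD, n = 3 each). No p is given for it, because the members were chosen with results of these data known.

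In the fit, the median log2 fold change was -0.24 over the 3 activators and 0.34 over the 7 repressors, against -0.0097 over all 12836 genes. Of the activators 2 were below 0 and 1 above, and of the repressors 6 were above 0 and 1 below. The activator median minus the repressor median was -0.59, and -0.57 without knockout library 3. Among single pairs, chosen after the values were seen, the ratio of Nr1d1 to Arntl was 8.93, 8.69 and 8.99 in wild type and 17.0, 18.8 and 14.1 in knockout. The wild type ratios were within a narrow range that no knockout library reached. In wild type, Nr1d1 and Arntl were each highest in library 1 and lowest in library 2. How the levels of these genes relate was not tested.

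**Figure D3:**
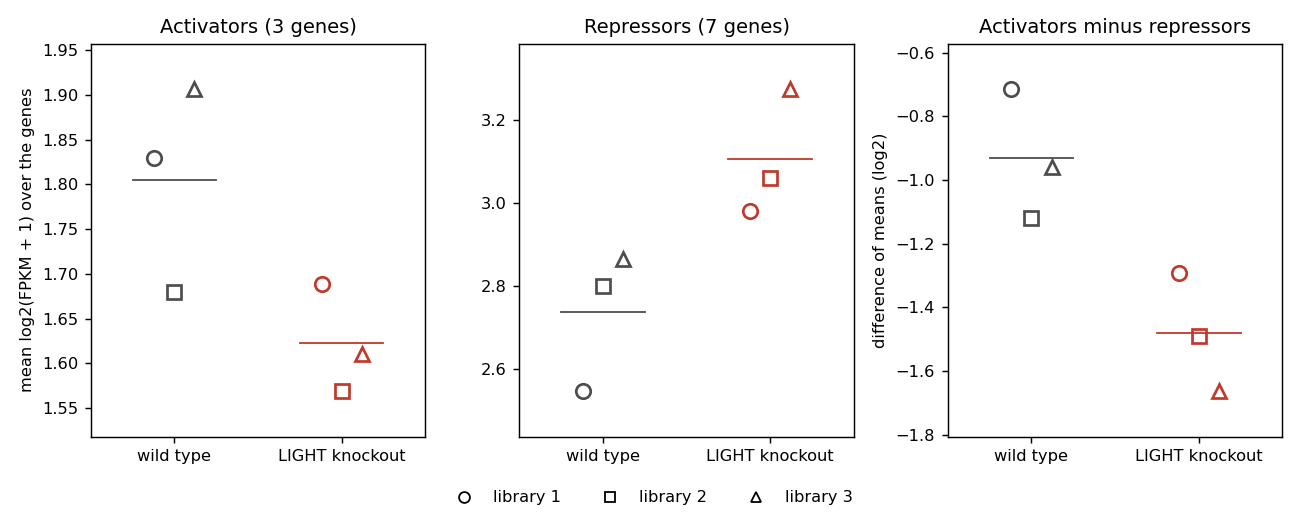
Mean log2(FPKM + 1) of the activators, of the repressors, and their difference (vertical axes, not starting at 0) in each wild type (grey) and LIGHT knockout (red) library; symbols are libraries 1 to 3 and lines are group means. The repressor means of 2.98 to 3.27 in knockout lie above those of 2.55 to 2.87 in wild type, and the differences do not overlap.

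The genes around the core loop were taken from a list of 9 second-loop and output factors, of which 8 were tested and 7 had a log2 fold change above 0 (median 0.43, against -0.0097 over all genes). Dbp, the D-box activator driven by E-boxes, passed the test and rose, from 8.11, 8.36 and 9.08 to 20.4, 18.9 and 22.0 FPKM, a log2 fold change of 1.17 ± 0.10 (SE, limma adjusted p = 0.0145). Its log2 fold change lay between 1.11 and 1.25 in 17 alternatives, but the call held in 11 and was lost in 6, with the replicate block (limma adjusted p = 0.175) and without any 1 library other than knockout library 3 (limma adjusted p = 0.0633 to 0.121). Its relatives Hlf and Tef did not pass (limma adjusted p = 0.592 for each), although the knockout libraries all lay above those of wild type, with Hlf at 3.76, 5.73 and 5.77 against 9.54, 8.22 and 20.8 and Tef at 11.8, 18.3 and 16.2 against 19.8, 22.1 and 33.2. Both were highest in knockout library 3, and without it their log2 fold changes were 0.71 ± 0.18 and 0.44 ± 0.18.

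Rora, an activator at ROREs, was at 8.45, 8.45 and 6.49 FPKM in wild type and at 7.78, 8.31 and 7.86 in knockout, with overlap. Nfil3, the D-box repressor, had a log2 fold change of -0.022 ± 0.31 (SE) and was lowest in knockout library 3 at 2.71 FPKM; the log2 fold change without that library was 0.31 ± 0.20. Ciart, another repressor of the activator pair, was at 0.267, 0.433 and 1.24 in wild type and 1.05, 1.46 and 1.93 in knockout, with overlap. The E-box repressors Bhlhe40 and Bhlhe41 had log2 fold changes of 0.17 ± 0.23 and 0.24 ± 0.15, and neither passed (limma adjusted p = 0.820 and 0.653). Without knockout library 3 the log2 fold change of Bhlhe40 was 0.43 ± 0.12 (SE, limma adjusted p = 0.552).

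The clock's kinases, ubiquitin ligases and cofactors gave no comparable pattern. Of 29 listed genes 28 were tested, 13 had a log2 fold change above 0 and 15 below, none passed the limma test, none had an unadjusted p under 0.05, and the median was -0.0080. Usp2, a deubiquitinase with a strong daily rhythm, was at 6.45, 11.8 and 9.30 FPKM in wild type and 9.92, 13.6 and 22.0 in knockout. Tipin and Hdac3, which encode a partner of TIMELESS and a histone deacetylase used by REV-ERB, had the next smallest p in that list, with log2 fold changes of -0.32 ± 0.17 and -0.25 ± 0.14 (SE; limma adjusted p = 0.613 and 0.623).

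Of 17 kidney genes with known clock control, 10 were above 0 and 7 below, with a median of 0.077, and none passed the limma test or an unadjusted p under 0.05. Ppara, a lipid-sensing nuclear receptor gene, was at 10.6, 16.5 and 10.2 FPKM in wild type and 16.0, 16.2 and 17.2 in knockout. Avpr2, the vasopressin receptor gene of the collecting duct, was at 1.57, 2.50 and 1.79 in wild type and at 2.64, 2.52 and 7.86 in knockout. Knockout library 3 alone was far from the rest.

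Because Per1 also answers to glucocorticoids, genes of that response were counted. Of 12, 5 were above 0 and 7 below, none passed the limma test, and the median was -0.10. Klf9, which is both hormone-induced and rhythmic, was at 31.2, 32.8 and 29.1 FPKM in wild type and 34.9, 39.6 and 42.5 in knockout (limma adjusted p = 0.592). Fkbp5, a standard reporter of glucocorticoid action, averaged lower in the knockout, with a log2 fold change of -0.28 ± 0.15 (SE, limma adjusted p = 0.613). The metallothionein Mt1 was at 432, 480 and 605 FPKM in wild type and 387, 382 and 133 in knockout (limma adjusted p = 0.596).

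Markers of cell types and of injury are given by their counts and by their summed levels. Of 10 proximal tubule markers, 9 were above 0 (median 0.65), and 8 did not overlap between the groups, all higher in the knockout, against 7.76% of all genes. The list's summed level was 4378 to 4986 FPKM in wild type and 4706 to 5853 in knockout, mostly from Kap, a kidney androgen-regulated transcript. The defining transporter gene Slc34a1 was at 331, 334 and 290 in wild type and 394, 426 and 875 in knockout. Knockout library 3 was the highest for it and for the list's sum, and the proximal tubule median was not formed without that library. Of 10 tubular injury markers 9 were below 0 (median -0.70) and 1 did not overlap, lower in the knockout, against 8.8% of all genes. The list summed to 6040 to 6723 FPKM in wild type and to 6252, 5100 and 1795 in knockout. Knockout library 3 was far the lowest, and the median was not formed without it. Of 8 leukocyte markers measured, 6 were below 0 (median -0.57) and 3 did not overlap, all lower, against the same 8.8%. They summed to 122 to 234 FPKM in wild type and 95.05 to 111 in knockout. The lymphocyte markers Cd3e and Cd79a were not among those measured. No marker of these lists passed the limma test. Their part in the clock gene differences was not tested.

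In the other lists, endothelial markers summed to 144 to 182 FPKM in wild type and 139 to 173 in knockout, with a median of -0.023 over 7 genes. Distal nephron markers summed to 663 to 1014 FPKM in wild type and to 554, 724 and 1384 in knockout libraries 1 to 3. Their median was 0.26 over 11 genes. Knockout library 3 alone lay above the wild type range of sums, and that median was not formed without it. Podocyte markers summed to 92.0 to 108 and 81.4 to 82.4, without overlap, with a median of -0.18 over 5 genes. Of these genes 2 did not overlap, each lower in the knockout, against 8.8% of all genes. Adipoq, Cfd and Cidea were at or near 0 in knockout libraries 1 and 2. Activators minus repressors gave -1.29 and -1.49 there, against -0.72 to -1.12 in wild type. The part of adipose tissue in that difference was not tested.

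**Figure D4:**
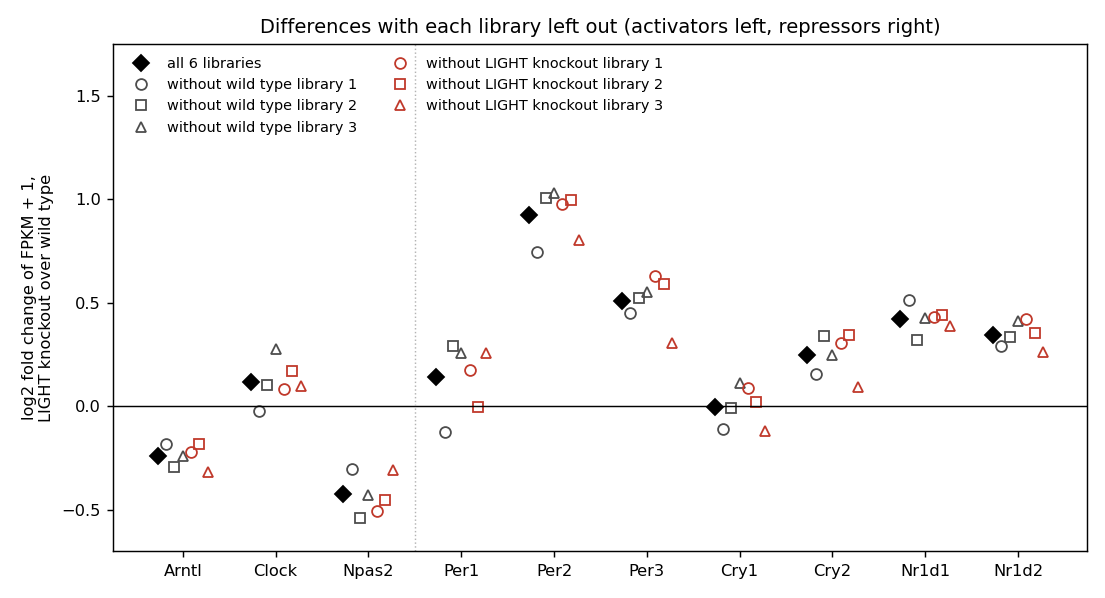
Log2 fold change of FPKM + 1 of each core clock gene (vertical axis, knockout over wild type) with all 6 libraries (black) and with 1 wild type (grey) or 1 knockout (red) library left out. Per2, Per3, Cry2, Nr1d1 and Nr1d2 stay above 0 and Arntl and Npas2 below it in every fit, while Per1, Cry1 and Clock cross it.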

How the data were processed

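Kidney RNA was extracted with TRIzol and sequenced from stranded KAPA libraries, per the labels' protocols. The authors deposited 1 FPKM value per gene and library. The submitters' processing notes list FastQC, HISAT2, StringTie and mm10 without versions or an annotation. Each single-library file was identical to its column of the joint table. Groups and numbers came from sample titles. In every row the higher group mean was at least 0.50043 FPKM.

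The filter kept 12836 genes that averaged 0.5 FPKM or more and removed 190. Values were put on log2(FPKM + 1) and compared in limma 3.58.1 (R 4.3.3) with a mean-variance trend, two-sided, with Benjamini-Hochberg adjustment over all genes kept. With 3 against 3, the smallest two-sided p of an exact permutation test is 0.1. The fit was also run on data simulated with independent noise in each gene and no outlying library. Knockout library 3 stood apart here, so that run does not vouch for the present values. The 10 members and the lists were chosen with earlier results of these data known. Named genes were all members, the second-loop factors (1 gene of that kind is not reported here), up to 3 genes of smallest p from each other list, and overlapping genes; Fkbp5 and the markers Kap, Slc34a1, Cfd, Adipoq, Cidea and Fabp4 were named after their values were seen. From marker lists, sums and counts are given. Positions and exons are from GENCODE M21 (GRCm38, the assembly of mm10), start windows from RefSeq.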

Additional observations from a re-analysis of the deposited data

How the results depend on the processing

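Across 17 alternatives (other pseudocounts, filters, scalings, variance models, a replicate block, each library left out) no member passed the adjusted test. The smallest adjusted p of any member was 0.0747, for Per2 with library weights. The difference of the arm medians (-0.59) lay between -0.77 and -0.59 under the settings that kept all libraries, and between -0.66 and -0.47 with a library left out. No scaling moved the median of all genes by more than 0.1. Genes called over the whole table numbered 15, but 52 with library weights, 0 with the replicate block, and 0 to 11 with 1 library left out. Dbp, followed through the same alternatives after the data were seen, kept its call in 11 of 17. The same replicate numbers showed no clear pairing of the samples. Their deviations correlated at 0.146, -0.133 and -0.0193 for numbers 1 to 3, against -0.144 to 0.180 for unlike numbers. Such a check cannot exclude pairing. Signs turned in 7 of 170 member values. Cry1 (-0.0039) was 0.012 when scaled to the same sum over nuclear genes and -0.12 to 0.11 with a library left out. Per1 was -0.12 to 0.29 and Clock -0.024 to 0.28 with a library left out. The cause of these changes was not tested. FPKM give no depth, so counting error at the low levels of Arntl and Npas2 is unknown.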
